A study of Mus musculus with 32 samples.

Results

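The 10 genes described here were the metallothionein genes Mt1 and Mt2, 7 genes that the transcription factor NRF2 is known to activate (Hmox1, Nqo1, Gclc, Gclm, Txnrd1, Srxn1 and Slc7a11) and Nfe2l2, which encodes NRF2 itself. They are a list of named genes, drawn up with earlier results of these data known, and were found by their Ensembl identifiers among the 25058 genes counted in every library of 3 assays. In kidney, Srxn1, Txnrd1 and Nfe2l2 had higher RNA after cisplatin, and Hmox1 had the largest difference but also the largest spread between libraries. The calls of Txnrd1 and Nfe2l2 did not hold under every alternative run. In excision repair sequencing (XR-seq), genes were tested for more reads per site on the transcribed strand (TS) than on the non-transcribed strand (NTS). In each organ 7 or 8 of the 10 genes passed, where 47.4% to 55.0% of all genes did. Not all of these calls held under the alternatives run. For Slc7a11 the strand difference passed the threshold in spleen, the organ in which its RNA was highest, and in lung it passed under some alternatives; the difference between organs did not itself pass a test.

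Metallothioneins are small proteins rich in cysteine that bind metal ions, and their genes are switched on by the zinc-sensing factor MTF-1 at metal response elements (MREs). NRF2 is held in the cytoplasm and marked for degradation by KEAP1. Electrophiles and oxidants release it, and it then binds antioxidant response elements (AREs) together with a small MAF protein, in competition with BACH1. Its targets make and use glutathione and thioredoxin, the thiols with which cells meet reactive compounds, platinum drugs among them.

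The libraries came from female C57BL/6J mice of 6 to 7 months, given 10 mg/kg cisplatin into the peritoneum at zeitgeber time 1, or saline (154 mM) as control, and killed at zeitgeber time 5. That interval is 4 h in the protocol, whereas a sample tag gives 2 h. Kidney, liver, lung and spleen each gave 2 Damage-seq, 2 XR-seq and 2 RNA-seq libraries from cisplatin-treated mice, and 2 RNA-seq libraries from control mice. Damage-seq reads mark platinum adducts still present in DNA, XR-seq reads are the short oligomers excised around adducts, and neither assay had an untreated library among these samples. Reads on genes per library ranged from 15619474 to 162270280 in RNA-seq, from 10658675 to 59779770 in XR-seq and from 1571167 to 6441367 in Damage-seq.

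The labels of the organs were checked with marker genes, whose summed CPM (reads of a gene scaled to a fixed total of reads on genes per library) were compared. Tubule markers summed to 11260 to 16690 CPM in kidney, hepatocyte markers to 71790 to 133000 CPM in liver, lung epithelial markers to 67110 to 74950 CPM in lung and B cell markers to 2982 to 3326 CPM in spleen, each far above the other organs. The libraries also differed in their makeup in ways that touch the results below. In kidney, tubule markers summed to 14300 and 16690 CPM in control and 11260 and 12510 CPM in cisplatin libraries. B cell markers there summed to 13.6 and 18.6 CPM against 7.43 and 8.68 CPM, and red pulp macrophage markers to 26.3 and 27.0 CPM against 54.0 and 34.7 CPM. The higher macrophage sum was not shared by the set. Its 4 markers tested in kidney had a median log2 change of -0.03, and 0 of them passed the test used below. In lung, B cell markers summed to 320 and 328 CPM in control and 98.5 and 71.9 CPM in cisplatin libraries, and markers of high endothelial venules to 171 and 175 CPM against 13.8 and 9.57 CPM. In spleen, pancreatic acinar markers summed to 0.517 and 0.448 CPM in control and 1571 and 1140 CPM in cisplatin libraries. In liver, hepatocyte markers summed to 71790 CPM in control library 1 and 133000 CPM in control library 2. The 2 control libraries of lung, and those of spleen, were nearly as alike as repeat counts of a single library (chi-square over its degrees of freedom 2.75 and 2.98, against 39.3 to 349 for the other RNA-seq pairs), so each was summed and counted as 1 sample.

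On the mouse genome (GRCm38, GENCODE M21), Mt2 (ENSMUSG00000031762, chr8:94172664-94173568, plus strand) and Mt1 (ENSMUSG00000031765, chr8:94179082-94180327, plus strand) lie next to each other, 5513 bp apart. Hmox1 (ENSMUSG00000005413, chr8:75093621-75100589, plus) and Nqo1 (ENSMUSG00000003849, chr8:107388225-107403206, minus) are on the same chromosome. Srxn1 (ENSMUSG00000032802, chr2:152105516-152111376, plus) and Nfe2l2 (ENSMUSG00000015839, chr2:75675513-75704641, minus) are on chromosome 2. Gclm (ENSMUSG00000028124, chr3:122245557-122270732, plus) and Slc7a11 (ENSMUSG00000027737, chr3:49892526-50443614, minus) are on chromosome 3, Gclc (ENSMUSG00000032350, chr9:77754535-77794485, plus) on chromosome 9 and Txnrd1 (ENSMUSG00000020250, chr10:82833951-82897712, plus) on chromosome 10. Slc7a11 spans 551089 bp in this annotation and 134152 bp in RefSeq (chr3:50364936-50499087). The RefSeq gene overlaps the counted interval only in part and extends past its 5′ end, so most of the counted interval lies outside it. Where along the counted interval the reads lie was not tested. The transcripts of Mt1 cover 100% of its 1246 bp, an antisense gene, Gm45774, overlaps 749 bp of Mt2, and Gm47073, on the opposite strand, overlaps 1393 bp of Txnrd1. Since the use of strand in counting RNA-seq reads is not given in the sources used here, RNA reads of Mt2 and Txnrd1 and of their opposite-strand partners cannot be told apart there.

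Upstream DNA was searched for the cores of both elements, and a match is a description of the letters, not a bound site. RefSeq promoters (GRCm38.p6, 250 bases before to 50 bases after the start) were matched for 8 of the 10 genes and searched on both strands for the MRE core, spelled TGCACNC or TGCGCNC, and the ARE core, spelled TGACNNNGC. At least 1 MRE core was present in 25.7% of all 32851 promoters and at least 3 in 1.97%; an ARE core was present in 12.4%. Mt2 held 4 MRE cores and Mt1 held 3, of which 3 and 1 lie in the 250 bases printed here, with the MRE cores in capitals and the sequence written 5′ to 3′ along the plus strand.

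Mt2, chr8:94172368-94172617, plus strand: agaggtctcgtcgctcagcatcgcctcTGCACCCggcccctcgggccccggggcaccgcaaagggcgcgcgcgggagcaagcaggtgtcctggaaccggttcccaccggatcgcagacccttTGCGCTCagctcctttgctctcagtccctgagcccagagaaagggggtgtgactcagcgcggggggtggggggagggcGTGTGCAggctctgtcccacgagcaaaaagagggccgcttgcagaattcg

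Mt1, chr8:94178839-94179088, plus strand: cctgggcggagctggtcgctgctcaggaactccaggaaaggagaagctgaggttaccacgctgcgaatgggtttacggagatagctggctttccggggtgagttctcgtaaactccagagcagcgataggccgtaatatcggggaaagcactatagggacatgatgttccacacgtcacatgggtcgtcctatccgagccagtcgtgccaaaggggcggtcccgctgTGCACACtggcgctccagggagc

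An ARE core was found before the start of Mt2, Gclm, Nfe2l2 and 1 of the 3 listed promoters of Txnrd1, and in the 50 bases after the start of Srxn1, where a core of MRE type also lies upstream. Gclm held 3 MRE cores too, 1 of them overlapping its ARE core, and Nqo1 and Slc7a11 held neither motif in this window. Txnrd1 and Nfe2l2 are shown because both rose in kidney RNA and carry the ARE core upstream of the start, here in capitals and written along the strand of the gene.

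Txnrd1, chr10:82858956-82859205, plus strand: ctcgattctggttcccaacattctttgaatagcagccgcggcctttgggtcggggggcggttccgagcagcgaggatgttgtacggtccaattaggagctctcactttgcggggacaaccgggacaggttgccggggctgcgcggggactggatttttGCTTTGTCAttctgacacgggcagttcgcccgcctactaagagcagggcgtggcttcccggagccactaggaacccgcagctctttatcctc

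Nfe2l2, chr2:75704664-75704913, minus strand: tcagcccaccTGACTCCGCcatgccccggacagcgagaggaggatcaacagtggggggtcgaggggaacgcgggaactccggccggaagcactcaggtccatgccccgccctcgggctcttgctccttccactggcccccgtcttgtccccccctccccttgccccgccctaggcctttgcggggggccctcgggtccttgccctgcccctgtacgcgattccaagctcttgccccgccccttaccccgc

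The response to cisplatin was measured in RNA-seq, with levels given as RPKM, the CPM per kilobase of exon. Changes were tested in each organ with edgeR against a log2 change of 0.4, and p-values were adjusted over all genes tested. In kidney 9 of the 10 genes had enough reads to be tested, 3 rose and 0 fell, where 2.4% of all 15471 genes tested rose and 2.65% fell. The median log2 change of these 9 was 1.06, against -0.0030 for all genes tested. In bulk tissue, fewer cells of a type and less RNA per cell cannot be told apart.

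Srxn1 encodes sulfiredoxin, which repairs over-oxidized peroxiredoxins. Its kidney RNA was 29.8 and 38.9 RPKM in the control libraries and 219 and 186 RPKM in the cisplatin libraries. The groups were wide apart, with a log2 change of 2.61 ± 0.23 (SE) and an adjusted p of 0.00694. Txnrd1, the cytosolic thioredoxin reductase, had 29.8 and 31.2 RPKM in control and 87.6 and 69.3 RPKM in cisplatin kidney. Its log2 change was 1.42 ± 0.18 (SE), with an adjusted p of 0.0208, and the adjusted p rose past 0.05 without cisplatin library 1. Nfe2l2 had 41.2 and 42.6 RPKM in control and 81.6 and 86.4 RPKM in cisplatin kidney, a log2 change of 1.06 ± 0.17 (SE) with an adjusted p of 0.0424. Both pairs of libraries lay close together, but the call was lost without either cisplatin library and when all organs entered a single fit.

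Hmox1 encodes heme oxygenase-1, which breaks down heme. Its kidney RNA was 13.98 and 71.3 RPKM in control and 863 and 312 RPKM in cisplatin libraries. All cisplatin values were above all control values and the log2 change, 3.78 ± 0.87 (SE), was larger than that of any other of the 10 genes in any organ, but the adjusted p was 0.0689. Tested against a change of 0, without the filter on low counts, without either control library, without cisplatin library 2 or with all organs in a single fit, it passed the threshold. Mt1 had 125 and 171 RPKM in control and 330 and 240 RPKM in cisplatin kidney (log2 change 0.99 ± 0.25 SE, adjusted p = 0.138), and Mt2 had 16.7 and 40.3 RPKM against 67.4 and 61.1 RPKM (1.19 ± 0.42 SE, adjusted p = 0.240). Both metallothioneins were thus higher in each cisplatin library than in each control, without passing the test; both passed it without the filter, with log2 changes of 0.96 and 1.16, and without control library 2, with 1.31 and 2.06.

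The remaining genes tested in kidney had smaller differences. Nqo1, a quinone reductase, had 32.6 and 38.9 RPKM in control and 43.1 and 50.7 RPKM in cisplatin libraries (log2 change 0.45 ± 0.20 SE). Gclm and Gclc are the modifier and catalytic subunits of the enzyme that limits glutathione synthesis. Gclm had 81.2 and 66.5 RPKM in control against 93.7 and 84.6 RPKM, whereas Gclc overlapped between the groups, with 227 and 93.0 RPKM in control and 137 and 105 RPKM in cisplatin libraries. Slc7a11, the cystine transporter subunit xCT, had between 4 and 28 reads per kidney library and was not tested there.

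In the other organs 0 of 10 genes passed the test with edgeR, and 0 with DESeq2 in each. The unadjusted p was under 0.05 for 1 gene in liver, 2 in lung and 1 in spleen. Of all genes tested, 0.0% passed in liver (0 genes, with 1287 at an unadjusted p under 0.05), 2.09% in lung and 0.181% in spleen. In lung and spleen the test set 2 cisplatin samples against 1 summed control, whose spread was assumed to be that of the cisplatin pair. The median log2 change of the 10 genes was 0.35 in liver, 0.55 in lung and -0.07 in spleen, against 0.03, 0.03 and 0.02 for all genes tested.

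**Figure D1:**
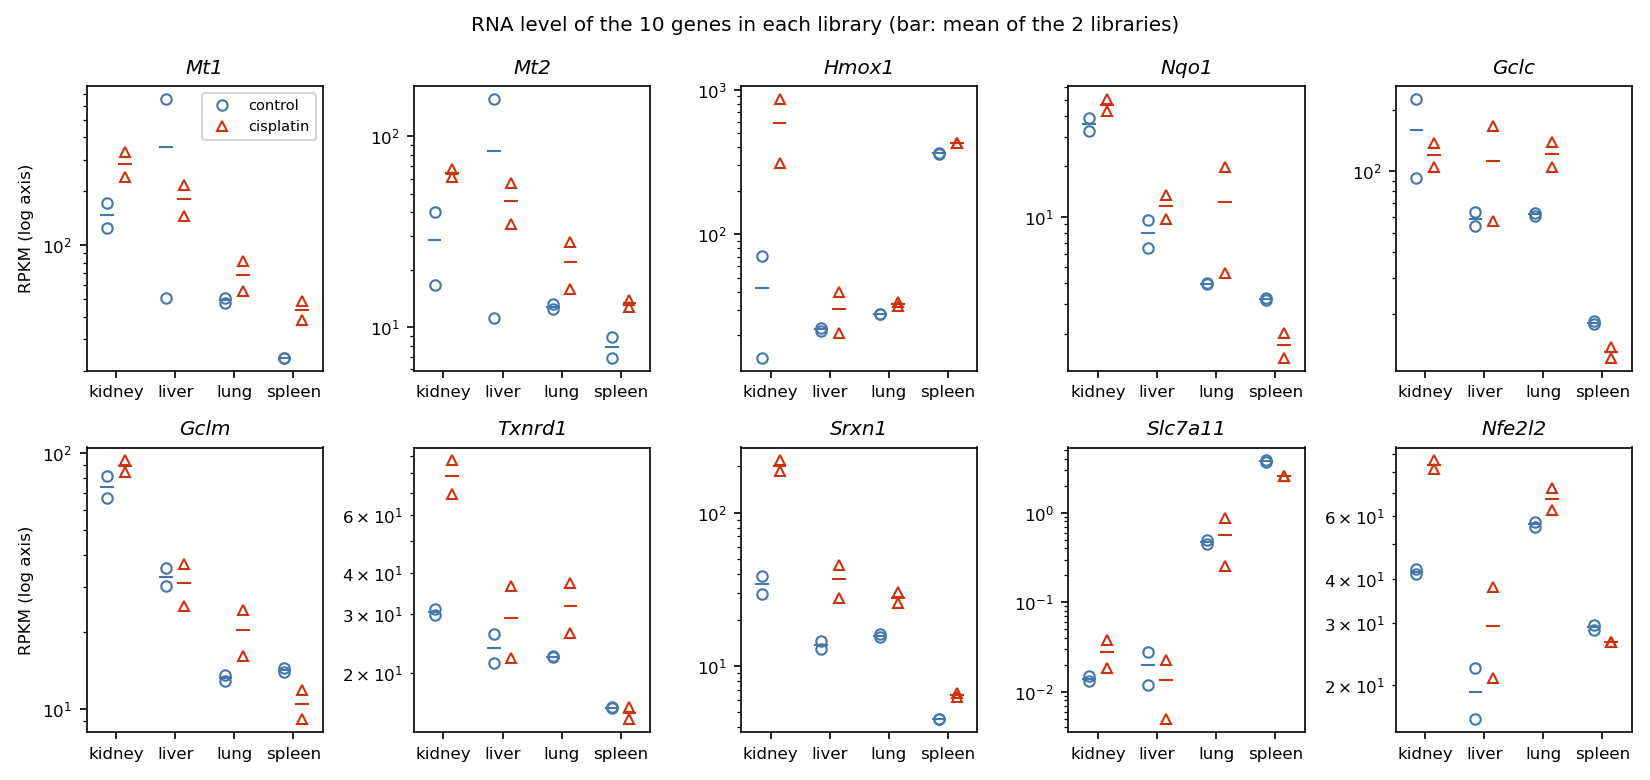
RNA level (RPKM, log axis) of the 10 genes in each of the 16 RNA-seq libraries, by organ, with circles for control, triangles for cisplatin and a bar at the mean of the 2 libraries. Srxn1 triangles lie above its circles in all 4 organs, Hmox1 circles are highest in spleen, and the 2 liver control circles of Mt1 and Mt2 lie far apart.

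Srxn1 was the only one of the 9 genes tested in every organ whose cisplatin libraries were all above the control libraries in each of the 4 organs. Such a pattern was found in 4.88% of the 13204 genes tested in all organs. Its RPKM was 12.9 and 14.6 in control and 27.7 and 45.7 in cisplatin liver, 16.1 and 15.4 against 25.6 and 30.2 in lung, and 4.50 and 4.53 against 6.64 and 6.31 in spleen. The log2 changes were 1.49 ± 0.46 (SE) in liver, 0.84 ± 0.19 (SE) in lung and 0.55 ± 0.20 (SE) in spleen, with adjusted p of 0.388, 0.177 and 1.0. The size was thus largest in kidney and smallest in spleen, and outside kidney it did not pass the test.

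Counted over all 10 genes, cisplatin libraries lay above control libraries for 8 of 9 genes in kidney, where 24.3% of all genes tested did so. In lung this held for 9 of 10 genes against 34.2% of all genes, in liver for 2 of 10 against 20.2%, and in spleen for 4 of 10 against 28.9%. In spleen a further 5 genes, Nqo1, Gclc, Gclm, Slc7a11 and Nfe2l2, had both cisplatin libraries below both controls, which 33.1% of all genes did. The lung and spleen controls are near copies, so that their narrow range makes such a pattern easier to meet. The lower lymphocyte and venule markers of the lung cisplatin libraries and the acinar markers of the spleen cisplatin libraries stand beside these values, and their part in them was not tested.

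Nqo1 and Gclc stood out in lung by size. Nqo1 had 3.98 and 4.01 RPKM in control and 4.59 and 19.99 RPKM in cisplatin lung, so its log2 change of 1.63 ± 0.80 (SE) came from cisplatin library 2. Gclc had 60.6 and 62.3 RPKM in control and 105 and 140 RPKM in cisplatin lung, with a log2 change of 0.98 ± 0.23 (SE) and an adjusted p of 0.167. In liver Gclc had 54.1 and 62.9 RPKM in control and 167 and 56.9 RPKM in cisplatin libraries, again with 1 high library.

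The metallothioneins had unequal control libraries in liver. Mt1 had 653 RPKM in control library 1 and 50.5 RPKM in control library 2, with 146 and 216 RPKM in the cisplatin libraries between them. Mt2 followed it, with 157 and 11.2 RPKM in control and 34.8 and 56.8 RPKM in cisplatin libraries. The log2 changes of -0.77 ± 0.94 (SE) and -0.68 ± 0.95 (SE) were smaller than their errors. Without control library 1 they turned to 1.79 and 1.98, and without control library 2 they were -1.65 and -1.57. Control library 1 is the liver library with the lower hepatocyte markers, and whether that bears on Mt1 was not tested. Over all libraries the ratio of Mt1 to Mt2 RPKM stayed between 2.66 and 7.45, with a median of 3.86. In lung Mt1 had 51.0 and 47.9 RPKM in control and 55.4 and 81.8 RPKM in cisplatin libraries, and in spleen 23.6 and 23.6 against 49.0 and 38.2 RPKM.

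**Figure D2:**
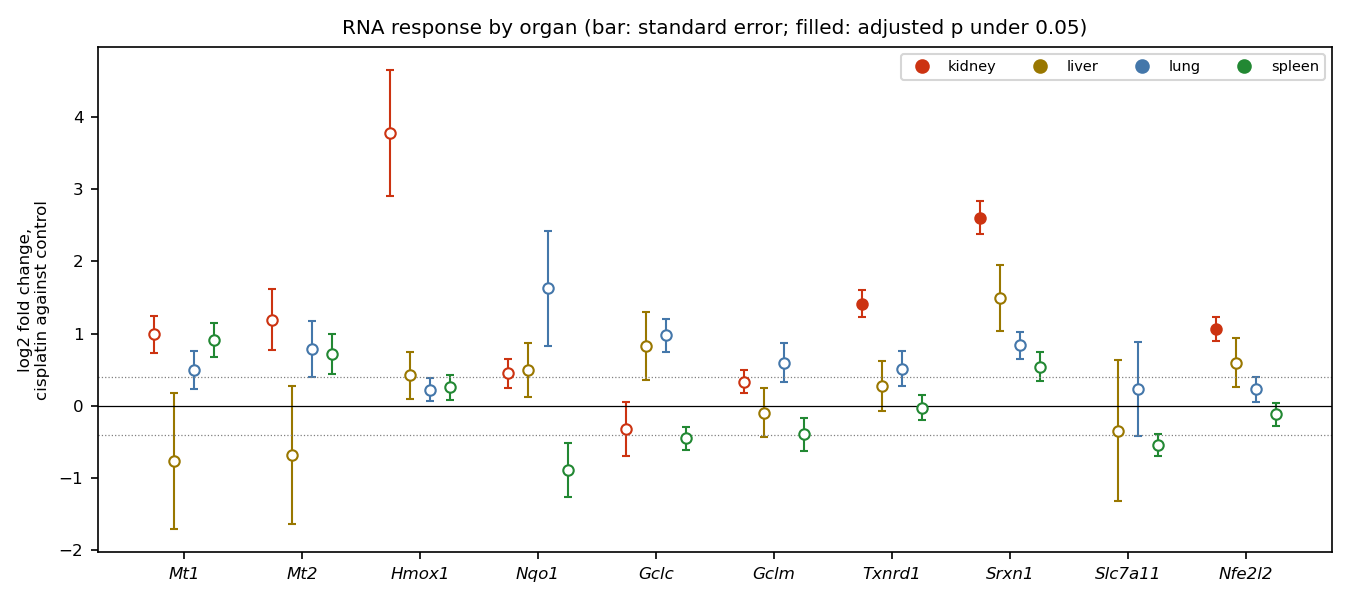
Log2 fold change of RNA, cisplatin against control, for the 10 genes in each organ from edgeR; bars are standard errors, filled points passed the test (adjusted p under 0.05) and dotted lines mark a change of 0.4. The filled points are Srxn1, Txnrd1 and Nfe2l2 in kidney, and Slc7a11 has no kidney point.

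Whether the response differed between organs was tested for all 6 pairs of organs. With edgeR 0 of 60 tests passed, and 11 had an unadjusted p under 0.05. Of all genes, 0.304% passed for kidney against spleen, 0.12% for kidney against lung, 0.0733% for kidney against liver, 0.0366% for liver against spleen, 0.0105% for lung against spleen and 0.0% for liver against lung. The differences with the largest size were those of Hmox1, whose kidney log2 change exceeded that of liver by 3.36 ± 0.94 (SE, adjusted p = 0.341), of lung by 3.54 ± 1.00 (SE, adjusted p = 0.334) and of spleen by 3.57 ± 1.00 (SE, adjusted p = 0.235). DESeq2 called these 3 differences and those of Txnrd1 and Nfe2l2 between kidney and spleen, 5 in all, and edgeR called 4 without the filter on low counts (those of Hmox1 and that of Srxn1 between kidney and spleen) and 4 with every library a replicate (Hmox1, Srxn1, Txnrd1 and Nfe2l2 between kidney and spleen). With the filter and with the lung and spleen controls summed, edgeR thus did not show a differing kidney response for any of the 10 genes.

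Genes around the pathway were taken from 3 lists. Of 11 regulators of NRF2, all tested in kidney, 4 rose and 1 fell, where 2.4% of all genes tested there rose and 2.65% fell. Maff and Mafk encode small MAF partners of NRF2; Maff went from 1.06 and 1.62 RPKM to 30.9 and 31.4 RPKM (log2 change 4.55 ± 0.29 SE) and Mafk had a log2 change of 1.93 ± 0.18 (SE). Sqstm1, whose product p62 binds KEAP1, had one of 1.95 ± 0.22 (SE). Bach1, the repressor that competes with NRF2, rose as well, with a log2 change of 1.45 ± 0.19 (SE), while the lymphocyte gene Bach2 had a log2 change of -2.71 ± 0.53 (SE). B cell markers summed to 13.6 and 18.6 CPM in control and 7.43 and 8.68 CPM in cisplatin kidney. Their part in the fall of Bach2 was not tested. Keap1 was 8.41 ± 1.59 RPKM (SD, n = 2) in control and 12.5 ± 0.48 RPKM (SD, n = 2) in cisplatin kidney, and did not pass (adjusted p = 0.337). The median log2 change of the 11 was 0.62.

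Of 29 further NRF2 targets, 28 were tested in kidney, 2 rose and 0 fell, with a median log2 change of 0.45. Among all genes tested in kidney, 2.4% rose and 2.65% fell. Osgin1, an oxidative stress response gene, had a log2 change of 2.92 ± 0.32 (SE), and Cbr3, a carbonyl reductase, one of 2.38 ± 0.30 (SE). Of 7 genes of metal handling 5 were tested and 1 rose, Slc30a1, the zinc exporter that MTF-1 is known to control, from 15.8 ± 1.05 to 42.4 ± 9.57 RPKM (SD, n = 2 each; log2 change 1.48 ± 0.19 SE). Mtf1 itself had a log2 change of 0.30 ± 0.17 (SE) and did not pass. In lung, where 1.96% of all genes fell, Bach2, Tkt and Me1 did, with log2 changes of -2.50 ± 0.29 (SE), -1.59 ± 0.18 (SE) and -1.51 ± 0.15 (SE), beside the fall of all 5 B cell markers and of 4 of 5 T cell markers there. In liver and spleen 0 genes of the 3 lists passed.

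The level of the 10 genes in control animals was compared between organs. Of 60 tests (10 genes, 6 pairs of organs) 29 passed, beside 36.5% of all genes for kidney against liver, 36.2% for kidney against lung, 50.1% for kidney against spleen, 45.2% for liver against lung, 50.9% for liver against spleen and 28.4% for lung against spleen. By pair, 0, 4, 7, 6, 9 and 3 of the 10 genes passed, in that order. Relative to RPKM, TMM normalization moved the log2 difference of every gene by -0.89 for kidney against liver, by 1.12 for liver against lung and by 1.06 for liver against spleen, so that the order of liver and another organ can differ between the scales. RPKM orders kidney above liver for Txnrd1 (30.5 ± 0.97 against 23.8 ± 3.34, SD, n = 2), whereas the fit put it 0.52 ± 0.26 (SE) lower on the log2 scale, a difference that did not pass.

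Hmox1 was highest in spleen, at 367 and 361 RPKM in the control libraries, against 13.98 and 71.3 in kidney, 22.5 and 21.6 in liver and 28.0 and 28.3 in lung. Spleen passed the test against each other organ (adjusted p = 0.00974, 0.00766 and 0.0188), and the 3 other organs were not separated from each other. Markers of red pulp macrophages, cells known to recycle heme, were also highest in spleen, but not in the same order as Hmox1 elsewhere, summing to 1397 and 1427 CPM in control spleen, 134 and 136 in lung, 429 and 283 in liver and 26.3 and 27.0 in kidney; their part in the level was not tested. Slc7a11 was likewise highest in spleen, at 3.67 and 3.84 RPKM, then lung, at 0.447 and 0.493, and very low in kidney, at 0.0149 and 0.0131, and liver, at 0.0281 and 0.0118. Spleen passed against all 3 others and lung against kidney and liver, while kidney and liver did not differ beyond their spread.

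The glutathione and quinone genes were not highest in spleen. Gclm was 73.9 ± 10.4 RPKM (SD, n = 2) in kidney and 32.9 ± 3.78 in liver, and both passed against lung (13.4 RPKM) and spleen (14.1 RPKM), 1 summed sample each. Nqo1 was 35.7 ± 4.45 RPKM (SD, n = 2) in kidney, 8.04 ± 2.11 in liver, 3.25 in spleen and 4.00 in lung, and kidney and liver each passed against lung and spleen but not against each other. Gclc was lowest in spleen, at 18.0 RPKM, which passed against kidney and liver. Srxn1 was also lowest in spleen, at 4.52 RPKM, and passed against all 3 other organs. Mt1 and Mt2 in liver passed against lung and spleen (Mt1 log2 difference 3.88 ± 1.18 SE and 4.86 ± 1.25 SE), but the liver controls were unequal. Liver control library 2 had 50.5 RPKM of Mt1 and 11.2 of Mt2. Lung controls had 47.89 to 50.95 RPKM of Mt1 and 12.45 to 13.16 of Mt2. In RPKM the difference from lung thus came from liver control library 1. These tests were not run with a library left out. Nfe2l2 did not pass in any pair, with 57.3 RPKM in lung, 41.9 ± 1.00 (SD, n = 2) in kidney, 29.3 in spleen and 19.1 ± 4.48 (SD, n = 2) in liver.

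Over the 14 RNA-seq samples left after summing, the gene most like Mt1 in log2(CPM + 1) was Mt2, with a Pearson correlation of 0.967, followed by Gnpnat1 (0.914), Slc25a25 (0.854), Ss18l2 (0.836) and Mocs2 (0.834). Nqo1 was most like Cbr1 (0.956), Gclm (0.949), Gss (0.948), Gsta2 (0.942) and Sowahb (0.934). Hmox1 was most like Gm35572 (0.960), 2810428J06Rik (0.929), Myc (0.922), Nop2 (0.921) and Utp4 (0.919). These samples share organs and treatment, and the correlations are a description over 19499 genes compared.

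Excision of adducts was read from XR-seq. Strand counts were expressed as CPM per 1000 GG dinucleotides of that strand, since GG is the main site of cisplatin adducts. In all organs the TS of the median gene had more reads per GG than its NTS (9.85 to 12.3 against 0.894 to 1.85 over the 8 libraries). TS and NTS were compared within libraries in 1 edgeR model, and 29 of 40 tests (10 genes, 4 organs) passed, all with TS above NTS. By organ, 7 genes passed in kidney where 52.5% of all genes did, 7 in liver against 47.4%, 7 in lung against 55.0% and 8 in spleen against 53.8%. The median log2 difference of the 10 genes was 2.73, 2.00, 3.53 and 3.77 in kidney, liver, lung and spleen, against 2.46, 1.84, 2.82 and 2.81 for all genes tested.

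**Figure D3:**
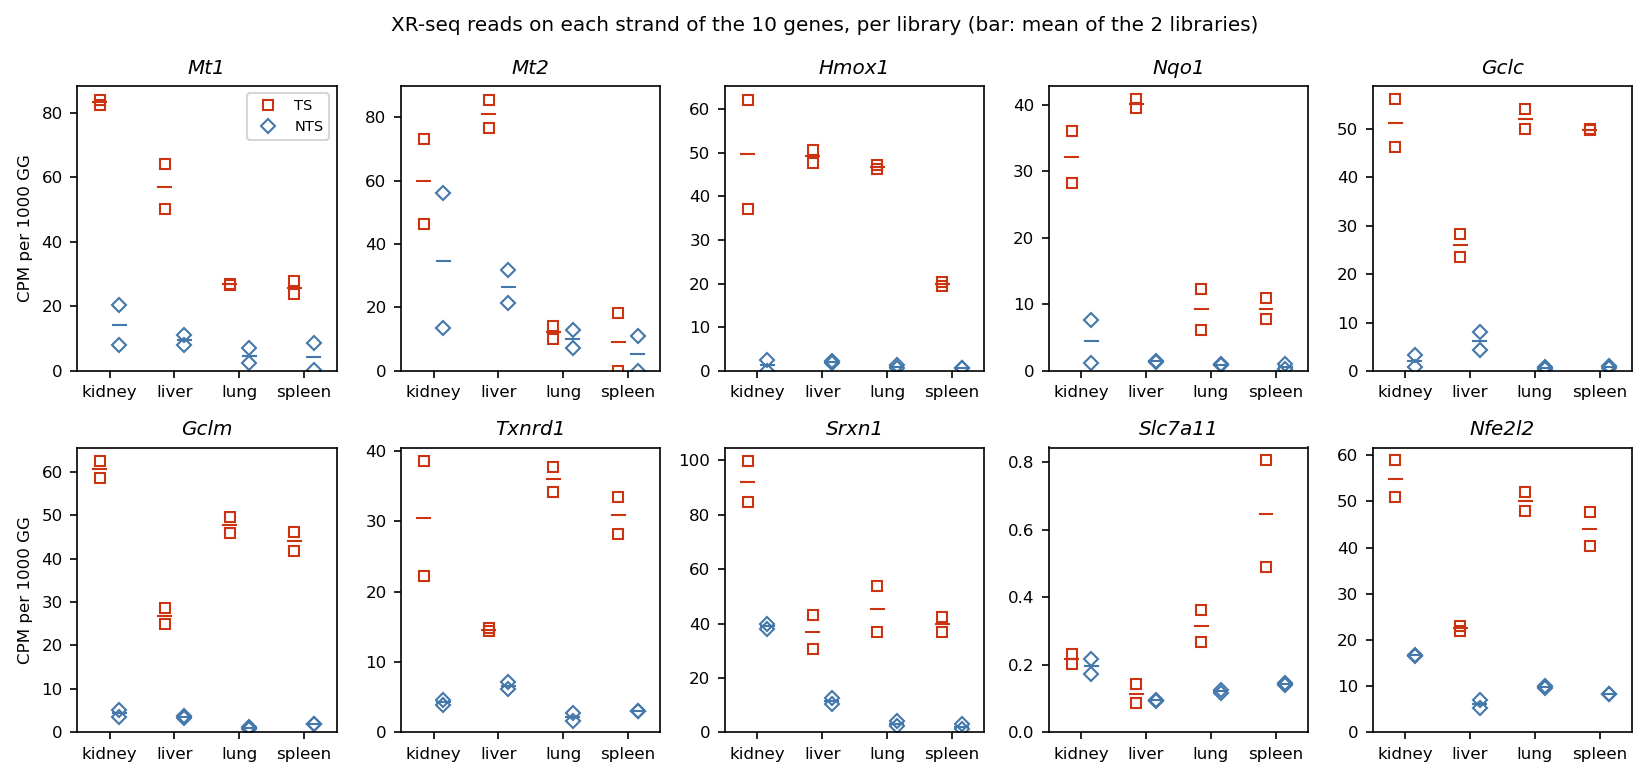
XR-seq reads on the TS (squares) and NTS (diamonds) of the 10 genes, as CPM per 1000 GG, in each of the 8 libraries by organ, with a bar at the mean of the 2 libraries. TS points lie far above NTS points for most genes; the NTS points of Srxn1 are high in kidney, and those of Mt1 and Mt2 are spread.

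The genes that passed in all 4 organs were Hmox1, Nqo1, Gclc, Gclm, Txnrd1, Srxn1 and Nfe2l2. The share of all genes that passed in all 4 organs was not counted. Gclc had 46.2 and 56.1 CPM per 1000 GG on the TS in kidney against 0.913 and 3.26 on the NTS, and 49.9 and 54.1 against 0.466 and 0.861 in lung. In liver its TS was lower, at 28.2 and 23.6, and its NTS higher, at 4.39 and 8.02. The log2 difference fell accordingly from 6.35 ± 0.52 (SE) in lung, 5.89 ± 0.52 in spleen and 4.83 ± 0.49 in kidney to 2.12 ± 0.43 in liver. Txnrd1 had the same order, 4.08 ± 0.30 (SE) in lung, 3.34 ± 0.29 in spleen, 2.78 ± 0.29 in kidney and 1.14 ± 0.27 in liver. For Gclm it was 5.55 ± 0.43 (SE) in lung, 4.55 ± 0.41 in spleen, 3.80 ± 0.39 in kidney and 2.90 ± 0.38 in liver. Some of these calls rested on 1 library. Without liver library 1 those of Gclc and Txnrd1 in liver were lost, at 1.56 and 1.01, as was that of Hmox1 there without either liver library (4.42 and 4.62). Hmox1 in spleen was lost without spleen library 2 (4.71), and Nqo1 in lung without lung library 2 (2.63).

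Srxn1 differed from these in kidney. Its TS was highest there, at 99.7 and 84.5 CPM per 1000 GG, but its NTS was high too, at 39.7 and 38.2. The NTS was 2.95 and 1.17 in spleen, 4.06 and 2.32 in lung and 10.3 and 12.8 in liver, so that kidney lay above all other organs. In the test over organs its NTS was higher in kidney than in the mean of the other organs by 2.69 ± 0.34 (SE) on the log2 scale (adjusted p = 0.000652), and lower in spleen, with a log2 difference of -2.37 ± 0.46 (SE), tests that 12.2% and 11.2% of all genes passed. No other gene of the files overlapped Srxn1 in the annotation. Its log2 strand difference was 1.24 ± 0.47 (SE, adjusted p = 0.0456) in kidney and 1.66 ± 0.48 (SE) in liver, against 3.84 ± 0.53 in lung and 4.43 ± 0.56 in spleen, and the kidney call was lost without any 1 of the kidney or liver libraries (1.15 to 1.33) and among genes under 100000 bp. The liver call was lost without either liver library (1.26 and 2.06). The strand difference itself differed between organs for 4 of the 10 genes, Gclc, Gclm, Txnrd1 and Srxn1, where 21.8% of all genes passed.

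Slc7a11 had few reads for the size of its counted interval, most of which lies outside the RefSeq gene. Its TS and NTS in CPM per 1000 GG were 0.233 and 0.203 against 0.218 and 0.174 in kidney, and 0.0859 and 0.144 against 0.0922 and 0.0973 in liver, where its RNA was near 0. In lung they were 0.362 and 0.269 against 0.118 and 0.126, and in spleen 0.808 and 0.489 against 0.147 and 0.140. The strands overlapped in kidney and liver, and the TS lay above the NTS in lung and spleen. The log2 strand difference was 0.16 ± 0.55 (SE) in kidney, 0.23 ± 0.55 in liver, 1.36 ± 0.55 in lung (adjusted p = 0.0571) and 2.12 ± 0.57 in spleen (adjusted p = 0.00892). DESeq2 called lung too (1.36), as did edgeR without either kidney library or without spleen library 2 (1.36 each). The spleen call was lost without spleen library 1 (1.80), and a test of the difference between organs did not pass (adjusted p = 0.229).

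Mt1 and Mt2 are short, with 101 and 88 GG on the TS, so that their read counts on the NTS were small. Per 1000 GG the NTS of Mt2 was high, at 56.1 and 13.5 CPM in kidney and 31.7 and 21.4 in liver. The NTS of the median gene had 0.894 to 1.85 over the libraries. An antisense gene, Gm45774, overlaps 749 bp of Mt2, and there the NTS of Mt2 is the TS of Gm45774. The part of Gm45774 in these reads was not tested. Mt1 had 153 and 237 TS reads and 37 and 22 NTS reads in kidney, and 30 and 83 TS reads and 9 and 1 NTS reads in spleen. Its log2 strand difference of 2.57 to 3.55 over the organs was of the size of that of other genes, but with standard errors of 1.17 to 1.40 the adjusted p lay between 0.0509 and 0.0944; DESeq2 called it in each organ, as edgeR did in some with a kidney or spleen library left out. Mt2 had 0 reads on either strand in spleen library 1, which allows up to 3.20 CPM per 1000 GG on the TS by counting error alone, against 18.4 in spleen library 2. Its strand difference ranged from 0.30 ± 0.99 (SE) in lung to 1.63 ± 1.00 in liver.

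**Figure D4:**
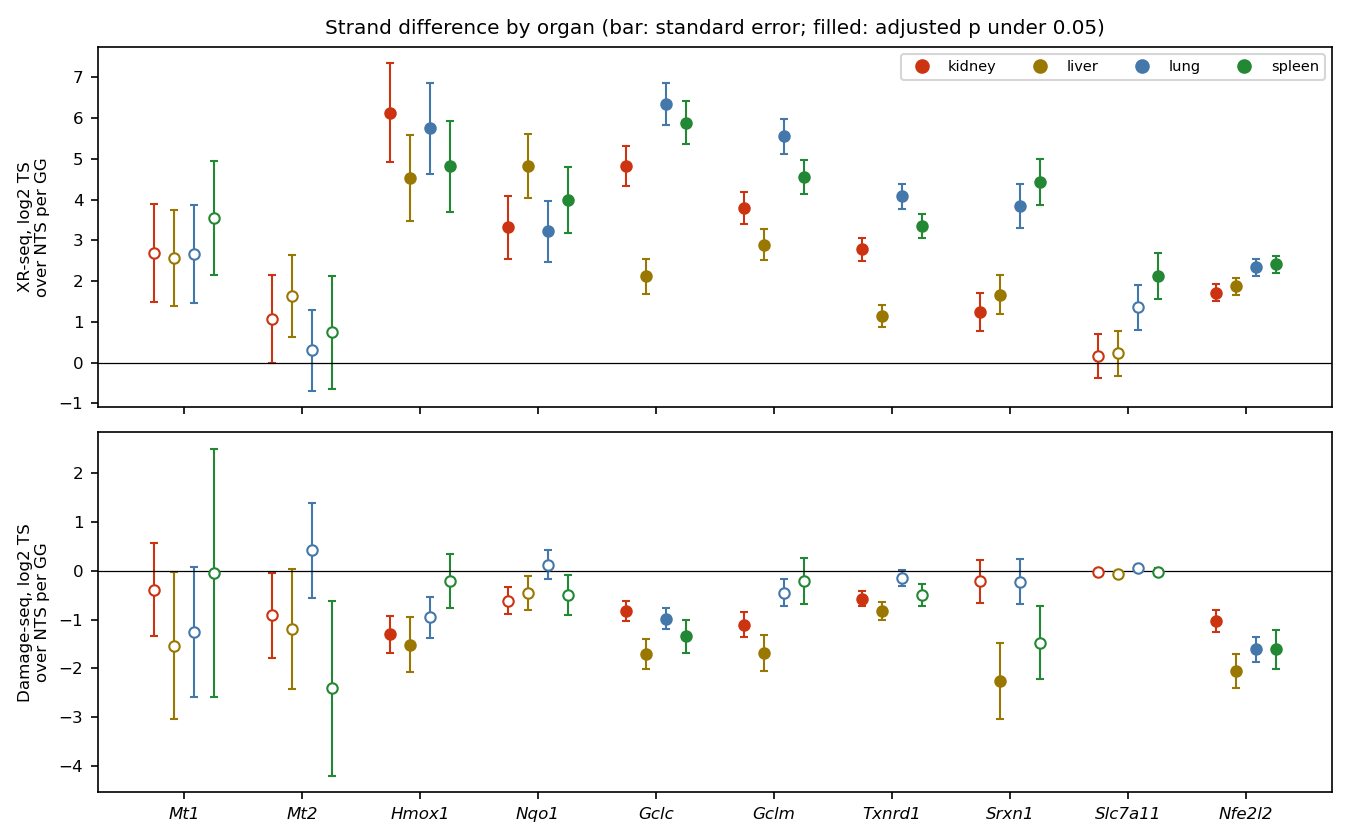
Log2 difference of TS over NTS per GG for the 10 genes in each organ, XR-seq above and Damage-seq below; bars are standard errors and filled points passed the test (adjusted p under 0.05). XR-seq points lie above 0, those of Gclc and Txnrd1 lowest in liver, and all filled Damage-seq points lie below 0.

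The TS reads of all 10 genes differed over the 4 organs in XR-seq (55.6% of all genes tested did so), and the NTS reads of 4 genes, Gclc, Txnrd1, Srxn1 and Nfe2l2 (25.0%). On the NTS liver was above the mean of the other organs for Gclc and Txnrd1 and below it for Nfe2l2, a test that 16.6% of all genes passed. Where Gm47073 overlaps Txnrd1, over 1393 bp, the NTS of Txnrd1 is the TS of Gm47073. Its part in these reads was not tested. Each organ was then set against the mean of the 3 others, a test that 31.3% of all genes passed on the TS for kidney, 48.3% for liver and 26.6% for spleen. Nqo1 had 40.8 and 39.5 CPM per 1000 GG on the TS in liver and 28.2 and 36.1 in kidney, against 6.16 and 12.3 in lung and 7.77 and 10.96 in spleen. Liver exceeded the mean of the others by 1.82 ± 0.23 (SE) on the log2 scale and kidney by 0.89 ± 0.23 (SE), whereas its RNA in RPKM was higher in kidney than in liver.

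Hmox1 had its fewest TS reads in spleen, at 19.4 and 20.3 CPM per 1000 GG, against 37.1 and 62.2 in kidney, 47.7 and 50.7 in liver and 46.3 and 47.3 in lung. Spleen was below the mean of the others, with a log2 difference of -1.32 ± 0.23 (SE, adjusted p = 0.0005). This is the organ in which Hmox1 RNA was highest in control animals, and its RNA in cisplatin spleen was 426 and 426 RPKM. In kidney, cisplatin RNA was 863 and 312 RPKM.

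Slc7a11 TS reads were higher in spleen than in the mean of the others by 1.66 ± 0.32 (SE) on the log2 scale and lower in liver, with a log2 difference of -1.32 ± 0.37 (SE), and its RNA too was highest in spleen. Gclc, Gclm, Txnrd1 and Nfe2l2 shared the lowest TS level in liver, with log2 differences of -0.66 ± 0.11, -0.59 ± 0.12, -0.84 ± 0.16 and -0.83 ± 0.12 (SE) from the mean of the others. Srxn1 was highest in kidney, by 1.00 ± 0.19 (SE). Mt1 had 82.3 and 84.0 CPM per 1000 GG in kidney, 64.0 and 50.1 in liver, 27.9 and 23.7 in spleen and 27.0 and 26.7 in lung, and Mt2 was highest in liver, at 85.6 and 76.7.

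Adducts left in the DNA were read from Damage-seq, whose median gene had 6.45 to 7.97 CPM per 1000 GG on the TS and 8.38 to 9.61 on the NTS over the 8 libraries. TS reads per GG were below NTS reads in 15 of 40 tests and above them in 0. By organ 5 of 10 genes passed in kidney where 18.7% of all genes were lower on the TS, 6 in liver against 29.5%, 2 in lung against 24.5% and 2 in spleen against 11.8%. The median log2 difference of the 10 genes was -0.72, -1.53, -0.33 and -0.49 in kidney, liver, lung and spleen, against -0.19, -0.33, -0.25 and -0.23 for all genes tested.

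Nfe2l2 and Gclc passed in all 4 organs, and the share of all genes that did so was not counted. Nfe2l2 had 6.25 and 9.99 CPM per 1000 GG on the TS in kidney against 17.7 and 14.9 on the NTS, and 1.87 and 3.09 against 9.47 and 10.4 in liver. Its TS points lay below its NTS points in every library. Its log2 difference was -1.03 ± 0.22 (SE) in kidney, -2.06 ± 0.34 in liver, -1.61 ± 0.40 in spleen and -1.61 ± 0.26 in lung. For Gclc it was -0.82 ± 0.21, -1.72 ± 0.31, -1.34 ± 0.34 and -0.98 ± 0.22 (SE) in the same order. Gclm, Txnrd1 and Hmox1 passed in kidney and liver, with log2 differences of -1.11 ± 0.26, -0.57 ± 0.15 and -1.30 ± 0.38 (SE) in kidney and of -1.69 ± 0.37, -0.82 ± 0.19 and -1.52 ± 0.56 (SE) in liver.

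Srxn1 passed in liver alone, at -2.27 ± 0.77 (SE, adjusted p = 0.0142), and there on 2 and 2 TS reads and 9 and 10 NTS reads. The call was lost without either liver library and with DESeq2, as that of Hmox1 in liver was. Without kidney library 1 the kidney calls of all 5 genes were lost, at -0.68 for Gclc, -0.63 for Gclm, -1.28 for Hmox1, -0.58 for Nfe2l2 and -0.57 for Txnrd1. That of Hmox1 was also lost without kidney library 2 (-1.32), and DESeq2 did not call Gclc and Txnrd1 in kidney. Gclm in liver was lost without liver library 1 (-1.19), Gclc in spleen without either spleen library (-1.10 and -1.69) and Nfe2l2 in spleen without spleen library 2 (-1.36). In spleen single genes had few reads, 9 and 9 on the TS of Nfe2l2 and 26 and 36 on its NTS. Mt1 had 19 TS reads over all 8 libraries and was not tested over organs on that strand. A difference of the Damage-seq strand effect between organs was not shown for any of the 10 genes (edgeR, 0 of 10, 1 with an unadjusted p under 0.05, where 9.47% of all genes passed).

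**Figure D5:**
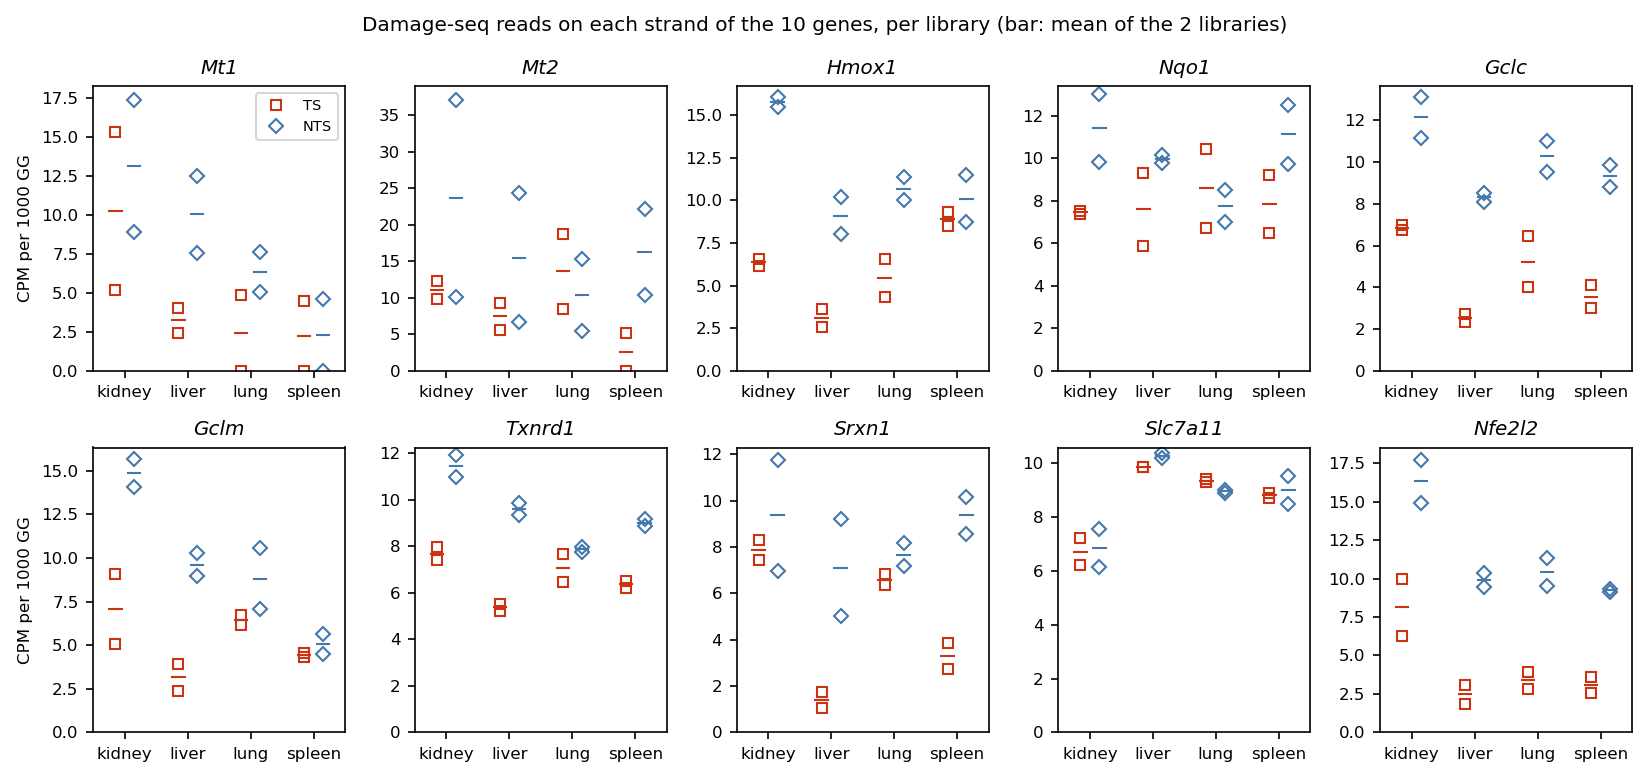
Damage-seq reads on the TS (squares) and NTS (diamonds) of the 10 genes, as CPM per 1000 GG, in each of the 8 libraries by organ, with a bar at the mean of the 2 libraries. NTS points of Nfe2l2 and Gclc lie above their TS points in each organ, and both strands of Slc7a11 lie together.

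Slc7a11, the longest of the genes, had the most Damage-seq reads, from 336 to 1395 on the TS per library. Its strands did not separate in any organ, with log2 differences of -0.03 ± 0.06, -0.06 ± 0.06, 0.06 ± 0.06 and -0.02 ± 0.07 (SE) in kidney, liver, lung and spleen. These values cover the counted interval, most of which lies outside the RefSeq gene, and that part was not tested on its own. Its level did differ over organs. The TS had 6.21 and 7.22 CPM per 1000 GG in kidney and between 8.73 and 9.87 in the other organs, a log2 difference of -0.66 ± 0.09 (SE, adjusted p = 3.18e-09), and the NTS followed with -0.53 ± 0.10 (SE). These are shares of a library's reads on genes, not counts of adducts per cell.

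Over organs, Damage-seq TS reads differed for 4 of the 9 genes tested (Gclc, Srxn1, Slc7a11 and Nfe2l2, where 28.3% of all genes did) and NTS reads for 3 of 10 (Gclm, Slc7a11 and Nfe2l2, against 16.5%). Kidney against the mean of the others passed for 26.5% of all genes on the TS and 24.6% on the NTS. Nfe2l2 was higher in kidney than in the mean of the others on the TS, by 1.29 ± 0.27 (SE) on the log2 scale, and on the NTS, by 0.65 ± 0.16 (SE). Gclc was higher in kidney on the TS, by 0.73 ± 0.24 (SE), and Gclm on the NTS, by 0.88 ± 0.21 (SE).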

How the data were processed

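Raw counts of RNA-seq, Damage-seq and XR-seq in 4 mouse organs were used. The authors aligned Damage-seq and XR-seq reads to mm10 with BWA, removed duplicates, kept reads with GG at the adduct position and deposited counts per gene on the TS and NTS. They aligned RNA-seq reads with STAR and deposited featureCounts counts per gene. For RNA-seq of spleen and lung the labels as they now stand, which the data's notes describe as corrected, were used. The 10 genes, the other lists and the markers were chosen with earlier results of these data known. Columns of per-sample values left unused numbered 0.

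Tests were made with edgeR 4.0.16 in R 4.3.3 (quasi-likelihood, TMM for RNA-seq and for organs, genes passing filterByExpr or with at least 20 reads) and adjusted by Benjamini-Hochberg over all genes, with a threshold of 0.05. The standard error is the log2 change over the root of its F statistic. TS and NTS were compared in a model with a term per library and an offset for GG counts, over genes with at least 10 GG on each strand. The named genes are the 10 members, Keap1, Bach1, Mtf1 and, per organ and list, up to 3 passing genes each of the largest rise and fall. RNA-seq pairs with a dispersion index of at most 3 were summed. Damage-seq pairs had indices of 1.43 to 3.11 and were kept apart. The index depends on reads per gene, which were fewer in Damage-seq, so it cannot tell how independent those pairs are. GENCODE M21 and the RefSeq genome (GRCm38) gave lengths, GG counts and promoters. The models were run on simulated counts with planted changes. The model for the response between organs was not required to find most of them. Alternatives were DESeq2 1.42.0, other filters and scalings, a replicate block and leaving out each library. The test of strand differences between organs was added after the data were seen. The study describes biological replicates, but p-values measure only the spread between these libraries, and bounds for 0 reads (3 reads) cover counting error only.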

Additional observations from a re-analysis of the deposited data

Results flagged for a closer look

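The strand difference of XR-seq, TS over NTS per GG, differed between the 4 organs for 4 of the 10 genes by a test of the difference itself (edgeR, 3 degrees of freedom, added after the data were seen), where 21.8% of all genes tested did. They were Txnrd1 (adjusted p = 0.0036), Gclc (adjusted p = 0.00479), Srxn1 (adjusted p = 0.0196) and Gclm (adjusted p = 0.0222). For Txnrd1, Gclc and Gclm the difference was lowest in liver and highest in lung, and for Srxn1 it was lowest in kidney and highest in spleen. With a group size of 2 libraries, no test for a single outlying library was possible.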

How the results depend on the processing

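Without the filter on low counts, 6 of the 10 genes were called in RNA-seq of kidney (3 in the report, with Hmox1, Mt1 and Mt2 added) and 1 in lung, Gclc. With every library a replicate 2 were called in lung, Gclc and Srxn1. Of 60 tests of the response between organs, 0 in the report, 4 passed without the filter, 4 with every library a replicate and 5 with DESeq2. Damage-seq TS reads differed over organs for 2 genes with DESeq2 (4 in the report). The cause was not tested. The other alternatives, beside the replicate block, moved the counts of the 10 genes by no more than 1.5 times. With each library left out in turn, the genes called in RNA-seq numbered 1 (without cisplatin library 1) to 6 (without control library 2) in kidney, 0 to 1 in liver (1 without cisplatin library 1), and 0 in both other organs. Strand differences numbered 24 to 32 in XR-seq and 10 to 15 in Damage-seq. Genes that differed over organs numbered 8 to 10 on the TS and 2 to 5 on the NTS in XR-seq (2 without liver or spleen library 2), and 2 to 4 on the TS (2 without kidney library 2 or liver library 1) and 0 to 3 on the NTS (0 without kidney library 1) in Damage-seq. Genes whose XR-seq strand difference differed between organs numbered 2 to 5 (2 without either liver library). Without a cisplatin library of lung or spleen, the lone sample was assumed to vary like the other groups. No called value of the 10 genes changed its sign under any alternative run.

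Counts over all genes moved more. In kidney 782 genes were called in the report, 1711 against a change of 0, 1896 without the filter and 123 to 2005 with a library left out. In liver 0 were called in the report, 155 without the filter, 188 with DESeq2, 518 with all organs in 1 fit and 22 to 1840 with a library left out. In lung 381 were called in the report, 804 against a change of 0, 1089 without the filter, 1606 with every library a replicate, 70 with all organs in 1 fit and 0 to 339 with a library left out. In spleen 32 were called in the report, 58 without the filter, 62 with every library a replicate, 85 with DESeq2 and 22 to 97 with a library left out.

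Control and cisplatin libraries share replicate numbers, but the labels do not tie a number to a batch. With 2 numbers per organ, the correlation of replicate differences was 0.565 in kidney, 0.451 in liver, 0.383 in spleen and 0.0569 in lung. With a replicate block 6 of the 10 genes were called in kidney (Hmox1, Mt1 and Mt2 added), 1 in liver (Srxn1), 2 in lung (Gclc and Srxn1) and 0 in spleen, and 5 of 60 responses differed between organs. Over all genes the block called 3182 in kidney, 1015 in liver, 172 in spleen and 1914 in lung. It moved no other count of the 10 genes by over 1.5 times. Depth limits Damage-seq, in which Srxn1 had 2 TS reads in each liver library and Mt1 had 19 in all.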

Other observations

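Txnrd1 and Gclc NTS reads in XR-seq were higher in liver than in the mean of the other organs, by 0.88 ± 0.19 (SE, adjusted p = 0.00829) and 2.29 ± 0.43 (SE, adjusted p = 0.00377) on the log2 scale, a test that 16.6% of all genes passed. Gm47073 overlaps 1393 bp of Txnrd1 on the opposite strand, and its part in the Txnrd1 reads was not tested. The NTS of Gclc had 4.39 and 8.02 CPM per 1000 GG in liver, 0.913 and 3.26 in kidney, 0.466 and 0.861 in lung and 1.04 and 0.702 in spleen. Liver lay above every other library. The NTS of Nfe2l2 was instead lowest in liver at 5.35 and 7.07 CPM per 1000 GG, with a log2 difference of -1.08 ± 0.16 (SE), and 16.6 and 16.8 in kidney.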
